A study of Mus musculus with 3 samples.

Results

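The genes described here are 10 mouse genes of meiosis. Stra8 and Dmrtb1 act at the decision to enter it, Sycp1, Sycp2 and Sycp3 encode the synaptonemal complex, Rec8, Rad21l, Smc1b and Stag3 encode meiotic cohesin, and Dmc1 encodes a recombinase. They were chosen by name for these roles, with earlier results of these data known. All 10 had a row among the 15311 genes of the table.

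Meiosis is the pair of divisions by which germ cells pass from a diploid to a haploid set of chromosomes. In its prophase the sister chromatids are organised on a protein axis by cohesin complexes whose subunits are largely specific to germ cells, and homologous chromosomes are then joined along their length by the synaptonemal complex. In embryonic stem (ES) cells, which divide by mitosis, many genes of this programme are held down by the Polycomb-type complex PRC1.6 (with the DNA-binding proteins MGA, MAX and E2F6) and by DNA methylation, although several are still transcribed at a low level. STRA8 is induced by retinoic acid in germ cells and is required for meiotic entry.

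Polyadenylated RNA from 3 ES cell libraries was sequenced: 2 of wild-type H2A.Z, called replicates 1 and 2, and 1 of the K3R3 mutant. Both kinds of line expressed H2A.Z with a yellow fluorescent protein (YFP) tag from a lentiviral, doxycycline-inducible CMV promoter (1 µg/ml doxycycline), were sorted for YFP, and held a short hairpin RNA that targets the 3′ untranslated part of the cells' own H2A.Z transcript. In K3R3 the lysines at positions 119, 120 and 123, which can carry ubiquitin, are replaced by arginine. The sample labels name the strain as V6.5 (129SvJae and C57BL/6), while the protocol text describes transduced KH2 ES cells, kept on feeder fibroblasts except for the last passage. All groups therefore share the transgene, the drug, the sort and the hairpin, and differ by the lysine changes alone as far as the labels say. Nothing in the labels tells whether the wild-type replicates were grown as separate cultures. The p-values therefore measure the spread between these samples only, which may be technical. K3R3 had no replicate.

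Library totals were 21614693 counts (wild-type replicate 1), 25426228 (replicate 2) and 24718223 (K3R3). ES cell identity was checked with 8 markers, among them Pou5f1, Nanog and Zfp42, all of which had a row. Their summed level was 6093 and 5092 CPM (counts scaled to a common library size with TMM factors) in the wild-type pair and 4063 CPM in K3R3, below both, and 3 of the 8 were called lower, against 0.542% of all tested genes. These were Sox2 (log2 -0.62), Klf4 (-0.78) and Dppa5a (-0.59). DESeq2 called 0 of the 8, and library totals implied by RPKM and the likelihood ratio test each left 1, Klf4. The difference of Dppa5a was -0.23 against replicate 2 alone. Of 16 markers of feeder fibroblasts 14 had a row (Lum and Postn had none), with summed levels of 1544 to 1619 CPM in the wild-type pair and 1208 CPM in K3R3, although 8 of the 14 single markers lay above both wild-type libraries, beside 35.3% of all genes. Thy1 was the 1 marker that rose (log2 1.77), beside 2.02% of all tested genes, and DESeq2 did not keep that call (adjusted p = 0.615). Of 9 markers of testicular somatic cells 6 had a row, and Amh, Cyp17a1 and Hsd3b1 had none. Their sum was 72.2 to 97.4 CPM in the wild-type pair and 106 CPM in K3R3. Dmrt1, also a germ cell gene, had 27.7 and 46.6 CPM in the wild-type pair and 68.9 CPM in K3R3. It was the 1 called higher of 5 tested, beside 2.02% of all tested genes, and DESeq2 did not keep the call. At an unadjusted p under 0.05, 2 of the 5 were lower, as were 460 of all 13829 tested genes. The median log2 difference of the 5 was -0.06. Of 8 markers of the 2-cell-like state 5 had a row (Tcstv1, Tcstv3 and Usp17la had none), with sums of 14.9 to 16.6 CPM in the wild-type pair and 10.6 CPM in K3R3. The part of these markers in the results was not tested. In bulk RNA, fewer cells of a type and less RNA per cell cannot be told apart.

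Of the 10 meiotic genes, 3 rose in K3R3 (Stra8, Rad21l and Dmrtb1) and 0 fell, by the quasi-likelihood test of edgeR, Benjamini-Hochberg adjusted over 13829 genes. Rad21l reached the minimum mean of 0.5 CPM for testing through its K3R3 count alone. Among the 9 genes that passed on wild type as well, the called ones were Stra8 and Dmrtb1. Over all tested genes 2.02% were called higher and 0.542% lower. Without a test, 7 of the 10 had a K3R3 level above both wild-type libraries, where 35.3% of all genes did, and 1, Stag3, lay below both, where 33.2% of all genes did. Sycp3 and Smc1b lay between the wild-type values. The median log2 difference of the 10, Rad21l included, was 0.48, beside -0.01 over all tested genes. It was 0.77 against replicate 1 alone and 0.29 against replicate 2 alone, and the median difference between the wild-type replicates was itself 0.26, with 8 of the 10 genes higher in replicate 2 than in replicate 1. DESeq2 called 1 of the 10, Stra8, where it called 0.239% of all tested genes higher.

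**Figure D1:**
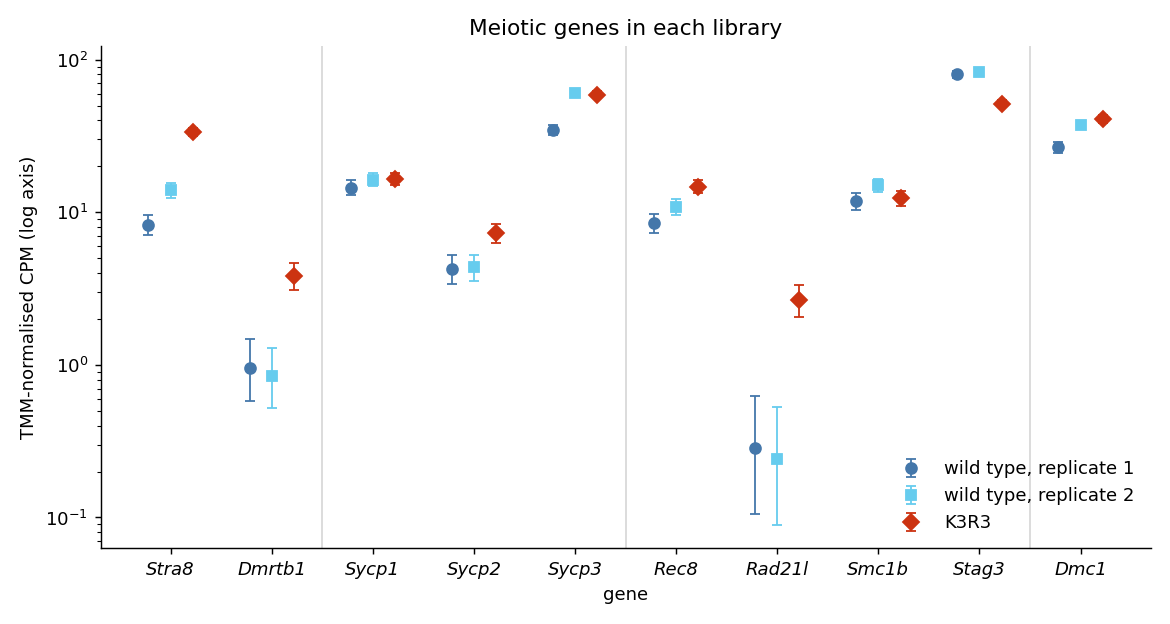
Level of each meiotic gene in each library, as CPM scaled by TMM factors on a log axis, with exact 95% Poisson intervals that cover counting error only. Grey lines part the genes of entry, the synaptonemal complex, cohesin and recombination. The K3R3 point of Stra8, Dmrtb1, Rad21l, Sycp2, Rec8 and Dmc1 lies above both wild-type intervals, and that of Stag3 below both.

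Levels can be compared between genes only per length, as RPKM, the count scaled by gene length and library size. In wild type, the highest RPKM was that of Sycp3, at 27.4 ± 10.7 (SD, n = 2), followed by Stag3 at 12.5 ± 0.498 and Dmc1 at 9.48 ± 2.29. Stra8 followed at 4.94 ± 1.84, Rec8 at 3.05 ± 0.569, Sycp1 at 2.90 ± 0.277 and Smc1b at 2.15 ± 0.384. Sycp2 (0.489 ± 0.0145), Dmrtb1 (0.325 ± 0.0236) and Rad21l (0.104 ± 0.0111) stood lowest. The wild-type ranges of neighbours in this order did not overlap, except those of Rec8 and Sycp1. Against all 15311 genes, Sycp3 stood at percentile 81.2 and 88.7 in the wild-type libraries and Rad21l at 10.0 and 9.47. In K3R3 the order differed. Stra8 (16.3 RPKM) stood above Dmc1 (13.2) and Stag3 (8.61), and Dmrtb1 (1.5) and Rad21l (1.13) stood above Sycp2 (0.902). This order rests on 1 library, with 69 counts of Rad21l, 99 of Dmrtb1 and 189 of Sycp2, and was not tested.

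Stra8 encodes the retinoic acid-induced factor of meiotic entry. It had 173 and 345 counts in the wild-type pair and 874 in K3R3, which are 8.23, 13.9 and 33.6 CPM. The wild-type libraries differed by a ratio of 1.69 (exact conditional 95% interval 1.40 to 2.04), more than counting error, and K3R3 lay above both. Stra8 rose by 1.6 on the log2 scale (SE 0.31; adjusted p = 8.8e-05), the change at percentile 96.9 of all tested genes. Against replicate 1 alone the log2 difference was 2.02 and against replicate 2 alone 1.27, beside 0.75 between the replicates. The call held under each alternative fit that was run, of which DESeq2 gave the largest adjusted p, 0.0227. Stra8 carries the class code active, from an earlier study cited in the table, and 0.838% of active genes were called higher. Among all genes with a mean of 10 to 100 CPM, where Stra8 lies, 1.10% were called higher.

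The promoter of Stra8 is shown because the gene is known for its response to retinoic acid. Its 300-base RefSeq window (250 bases before to 50 after the annotated start; build GRCm38.p6, whereas the counts were made on mm9) held the sequence AGGTCA, the hexamer that retinoic acid receptors bind as a repeat, at 2 places. Capitals mark the hexamer in both stretches, which lie on the plus strand at chr6:34920742-34920771 and chr6:34920898-34920927. The hexamers begin 194 and 38 bases before the start. Each stretch held a single exact match, so the 2 matches do not form a close repeat. Binding was not tested.
Stra8, upstream: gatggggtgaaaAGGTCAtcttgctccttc
Stra8, near the start: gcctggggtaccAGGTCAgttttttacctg
AGGTCA, searched on both strands, occurred in 16.3% of 32851 promoter windows and in those of 2 of the 10 genes, Stra8 and Sycp3.

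Dmrtb1 encodes a DM-domain transcription factor of spermatogonia that takes part in the choice between mitosis and meiosis. It had 20 and 21 counts in wild type (0.951 and 0.846 CPM) and 99 in K3R3 (3.80 CPM). The wild-type replicates lay within counting error of each other (ratio 0.889, interval 0.459 to 1.73), and K3R3 stood 4.25-fold above the pooled wild type (interval 2.93 to 6.28, counting error only). Dmrtb1 rose by 2.08 log2 units (SE 0.62; adjusted p = 0.037), which lay close to the threshold, and the adjusted p by DESeq2 was 0.625. It is classed as bivalent, the code for promoters with both an activating and a Polycomb mark, and 10.5% of bivalent genes were called higher. Of the 3 bivalent genes among the 10 (Dmrtb1, Sycp1 and Sycp2), 1 was called.

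**Figure D2:**
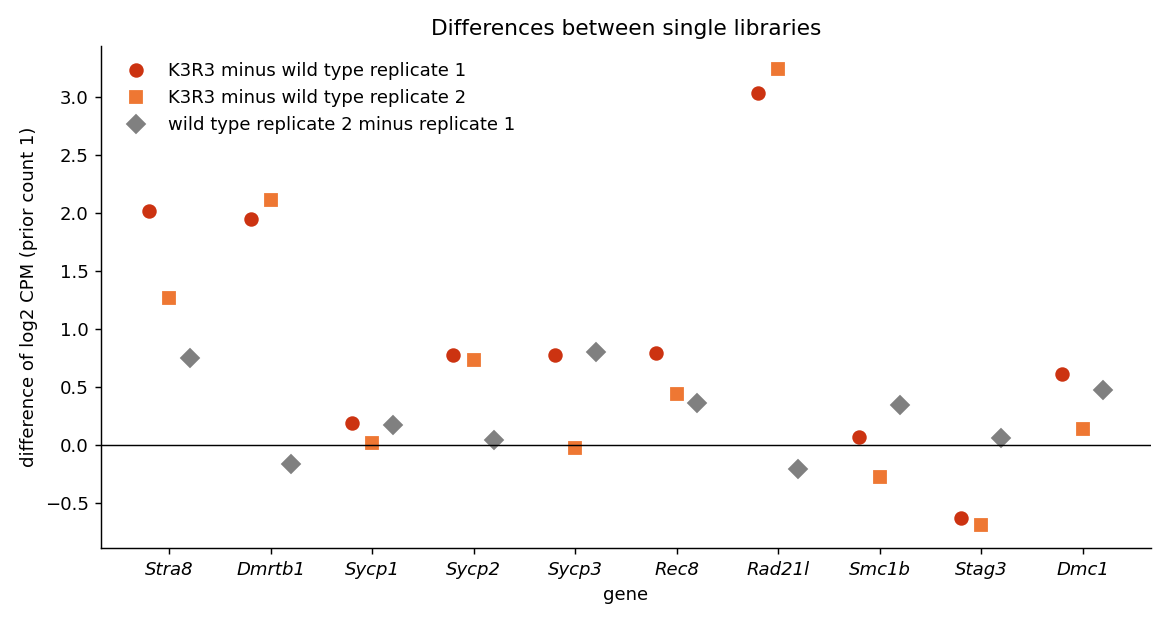
Difference of log2 CPM (prior count of 1) of each meiotic gene between K3R3 and each wild-type library alone, and between the wild-type replicates in grey. For Stra8, Dmrtb1, Rad21l, Sycp2, Rec8 and Stag3 both K3R3 differences lie farther from 0 than the replicate difference, whereas Sycp3 reads 0.77 against replicate 1, -0.03 against replicate 2 and 0.80 between the replicates.

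None of the 3 synaptonemal complex genes was called. Sycp1 encodes the transverse filament that spans the gap between homologues. Its level was 14.5 and 16.3 CPM in the wild-type pair and 16.5 CPM in K3R3, so the log2 difference was 0.10 (SE 0.33; adjusted p = 1.00). A pseudogene, Sycp1-ps1, had its own row, with counts of 14 and 8 in the wild-type pair and 19 in K3R3, and how reads that fit both were counted is not given in the sources used here. Sycp2 encodes a protein of the lateral element. It had 4.23 and 4.35 CPM in the wild-type pair and 7.26 CPM in K3R3, and its log2 difference of 0.76 (SE 0.42) did not pass (adjusted p = 0.541). The Sycp2 counts were 89, 108 and 189, and K3R3 stood 1.69-fold above the pooled wild type (counting interval 1.38 to 2.07).

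Sycp3 encodes the other lateral element protein and had the highest RPKM of the 10 genes in wild type. It had 34.5 CPM in replicate 1, 60.1 CPM in replicate 2 and 59.0 CPM in K3R3, so K3R3 matched replicate 2 within the counting intervals. The log2 difference was 0.32 (SE 0.25; adjusted p = 0.817). Part of its exons overlaps those of Chpt1 on the opposite strand (660 of 1264 exon bases in GENCODE M21), and whether counting used strand is not given in the sources used here, so reads of the pair cannot be told apart. Chpt1 had 18.2 and 24.2 CPM in the wild-type pair and 20.3 CPM in K3R3, also higher in replicate 2 than in replicate 1.

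Rad21l and Rec8 encode the meiotic kleisins, the subunits that close the cohesin ring, and of these Rad21l was called and Rec8 was not. The counts of Rad21l were 6 in both wild-type libraries and 69 in K3R3, or 0.285, 0.242 and 2.65 CPM. K3R3 stood 10.1-fold above the pooled wild type, with a wide counting interval of 5.44 to 20.5. Rad21l rose by 3.31 log2 units (SE 0.80; adjusted p = 0.00361), at percentile 99.8 of all tested genes. It reached the minimum mean of 0.5 CPM through its K3R3 count alone, so the other 9 genes are those that passed on wild type as well. With no minimum its adjusted p was 0.00287, and with DESeq2 it was 0.371. Rad21l is classed as active, and 2.87% of genes at a mean of 0.5 to 2 CPM, where it and Dmrtb1 lie, were called higher.

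Rec8 encodes the kleisin that holds sister chromatids together through the first meiotic division. It had 178 and 270 counts in the wild-type pair and 383 in K3R3, which are 8.47, 10.9 and 14.7 CPM. K3R3 lay above both wild-type libraries, but the log2 difference of 0.60 (SE 0.35) did not pass (adjusted p = 0.582). Its wild-type replicates differed by a ratio of 1.28 (interval 1.06 to 1.56).

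Smc1b encodes the meiotic SMC subunit and Stag3 the meiotic STAG subunit. Smc1b had 11.8 and 15.0 CPM in the wild-type pair and 12.3 CPM in K3R3, between the wild-type values, with a log2 difference of -0.12 (SE 0.35) that became 0.0022 with library totals implied by RPKM. Stag3 had 1684 and 2073 counts in the wild-type pair and 1341 in K3R3, or 80.1, 83.5 and 51.5 CPM. Its wild-type replicates lay within counting error of each other (ratio 1.04, interval 0.977 to 1.11) and K3R3 lay below both. The log2 difference of -0.67 (SE 0.24) had an unadjusted p of 0.00546 and did not pass after adjustment (adjusted p = 0.12, and 0.371 with DESeq2). Stag3 was the only one of the 7 genes not called whose unadjusted p was under 0.05. In the authors' deposited table, whose p-values are unadjusted, Stag3 has 0.0103, Stra8 2.68e-05, Rad21l 0.00449 and Dmrtb1 0.0148. There, 744 of 15311 genes have an unadjusted p under 0.05.

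Dmc1 encodes the meiosis-specific recombinase that pairs broken DNA with the homologous chromosome. It had 26.8 and 37.3 CPM in the wild-type pair and 41.0 CPM in K3R3. The log2 difference of 0.35 (SE 0.28; adjusted p = 0.81) was smaller than the 0.48 between the wild-type replicates.

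**Figure D3:**
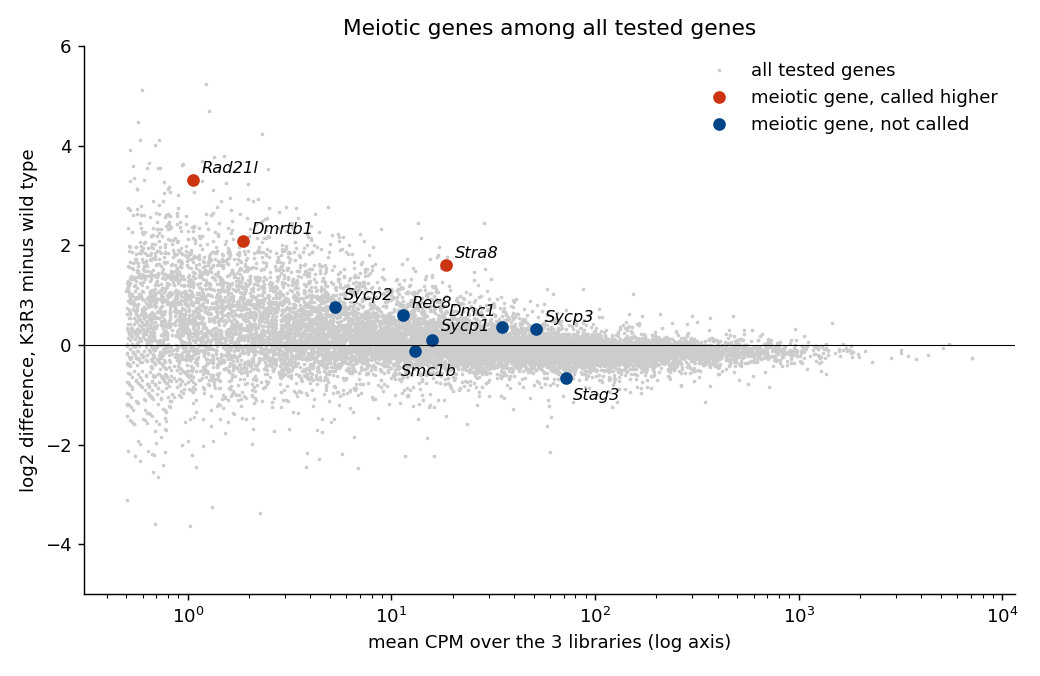
Log2 difference between K3R3 and wild type against the mean CPM over the 3 libraries (log axis) for all tested genes in grey and the 10 meiotic genes in colour. The called genes Stra8, Dmrtb1 and Rad21l lie at 1.6, 2.08 and 3.31, and Stag3, not called, at -0.67.

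Promoter windows of all 10 genes were searched for the sequences bound by the PRC1.6 factors, the E-box CACGTG of MGA and MAX and the core TCCCGC of E2F6, on both strands. In these windows no match of one overlapped a match of the other. TCCCGC occurred in the windows of 6 of the 10 genes, beside 19.98% of all windows, and CACGTG in 3 of the 10, beside 7.15%. At least 1 of the pair was in the windows of 6 of the 10, beside 25.1% of all windows. The genes with a match were Sycp1, Sycp3, Rec8, Smc1b, Stag3 and Dmc1, and those without were Stra8, Rad21l, Dmrtb1 and Sycp2. A relation between matches and the K3R3 differences was not tested. The windows also differed in base content, with 2 CpG in Rad21l, 10 each in Stra8 and Sycp2, 9 and 28 in the 2 windows of Dmrtb1 and 15 to 30 in the other 6, where the median of all windows was 7. Some matches in the synaptonemal complex genes, the cohesin genes and Dmc1 are printed to show their setting. The match is in capitals, along the gene's own strand. The promoter of Dmc1 held a second TCCCGC farther upstream, which is not printed. Also not printed are the TCCCGC of Sycp1, just after its start, and that of Sycp3. The latter lies 147 bases before the start and reads on the opposite strand.
Sycp3, both E-boxes, plus strand, chr10:88459522-88459551: cCACGTGagaacgggcatggagCACGTGct
Sycp1, E-box, minus strand, chr3:102936177-102936206: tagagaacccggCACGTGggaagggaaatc
Stag3, E-box, plus strand, chr5:138280327-138280356: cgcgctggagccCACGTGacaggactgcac
Stag3, E2F6 core, plus strand, chr5:138280495-138280524: tatcccgtgcctTCCCGCgtttttttctaa
Smc1b, E2F6 core, minus strand, chr15:85131987-85132016: aaaagaatttctTCCCGCgctttttttttt
Rec8, E2F6 core, plus strand, chr14:55618116-55618145: gtgtgcacctgaTCCCGCtggagggcgaca
Dmc1, E2F6 core, minus strand, chr15:79605105-79605134: aagggggcttgcTCCCGCggccctcatttg
A match describes these letters in GRCm38.p6 and is no evidence of binding.

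Each meiotic cohesin subunit has a mitotic paralog, and the share of the meiotic form within its family does not depend on how libraries are scaled. Among kleisins (Rec8, Rad21l and the mitotic Rad21), the meiotic pair made up 1.66% and 1.98% of length-scaled counts in wild type and 4.03% in K3R3. Rad21l alone was 0.0671% and 0.0534% in wild type and 0.738% in K3R3, and Rec8 alone was 1.6%, 1.93% and 3.29%. K3R3 lay above both wild-type libraries in each case, and Rad21 remained the bulk of the family. Rad21 itself stood at 914 and 970 CPM in the wild-type pair and 753 CPM in K3R3 (log2 -0.32; adjusted p = 0.493), lower than both but not called.

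Stag3 made up 19.5% and 17.3% of the STAG family in wild type and 14.2% in K3R3, below both. Its mitotic paralogs were not called either, Stag1 with a log2 difference of -0.30 (adjusted p = 0.689) and Stag2 with -0.17 (adjusted p = 0.948). Smc1b made up 3.43% and 4.49% of the SMC1 pair in wild type and 4.27% in K3R3, within the wild-type range, and Smc1a had a log2 difference of -0.24. None of these shares was tested, since K3R3 had 1 library.

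**Figure D4:**
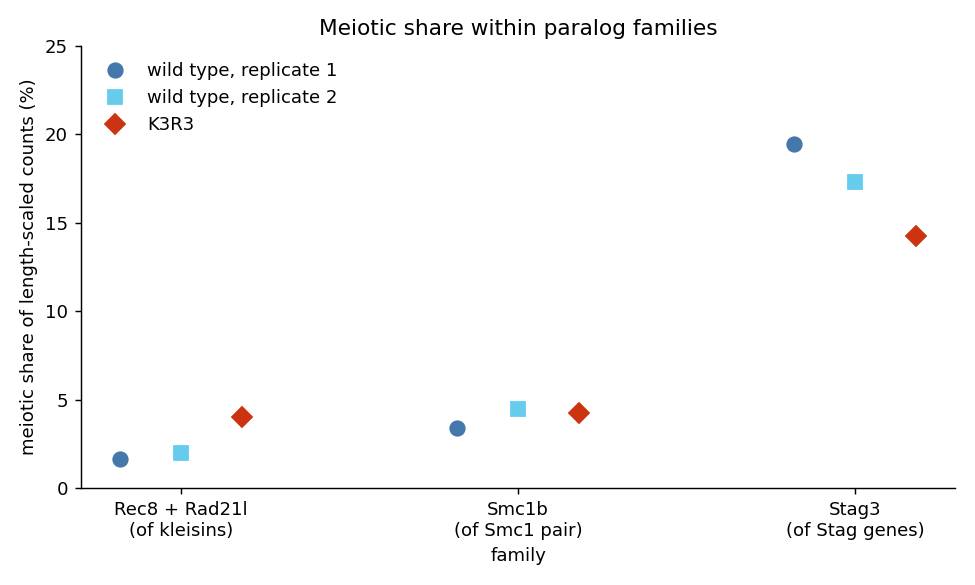
Share of the meiotic form among the length-scaled counts of its family, in percent, for each library. K3R3 lies above both wild-type libraries for the kleisins (4.03%), below both for Stag3 (14.2%) and between them for Smc1b (4.27%).

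Other genes around the same process were listed by role. Of 18 mitotic cohesin genes and their regulators, 0 were called in either direction, with 0 at an unadjusted p under 0.05 and 0 by DESeq2, and the median log2 difference was -0.20. Of these 18, 11 lay below both wild-type libraries and 1 above both, beside 33.2% and 35.3% of all genes. Of 11 other synaptonemal complex and axis genes, 8 were tested and 0 called (0 at an unadjusted p under 0.05, 0 by DESeq2), with a median of -0.05. Tex12, a central element protein too low to be tested, had 2 and 4 counts in the wild-type pair and 26 in K3R3. That is a 7.63-fold difference with a counting interval of 3.07 to 22.7. Fkbp6 went the other way, with 42 and 26 counts in the wild-type pair and 14 in K3R3 (log2 -1.48, not called). Both were named after their values were seen. Among the 9 genes of this list with a row, 2 lay above both wild-type libraries and 4 below both. Of 27 genes of meiotic break formation and recombination, 22 were tested and 0 called, with 5 higher and 0 lower at an unadjusted p under 0.05 (1092 and 460 of all 13829 tested genes), 0 called by DESeq2 and a median of -0.03. With library totals implied by RPKM 3 of these passed (Ccdc36, Tex11 and Tex15), and with the likelihood ratio test 1 did (Mei1). Mei1, with 7 and 8 counts in the wild-type pair and 46 in K3R3, reached the minimum mean of 0.5 CPM through K3R3 alone. On wild type as well, 20 of the 22 passed that minimum. Of 8 genes that tie meiotic telomeres to the nuclear envelope, 6 were tested and 0 called, with 1 higher and 0 lower at an unadjusted p under 0.05, 0 by DESeq2 and a median of -0.03. With 2.02% of all tested genes called higher and 0.542% lower, 0 calls in lists of this size lie near the share over all genes.

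Regulators of meiotic entry and germ cell fate held 3 called genes of 12 tested, all higher, beside 2.02% of all tested genes. Of the 12 tested, 7 are bivalent, a class of which 10.5% were called higher. Gm1564 is an older symbol of Meioc, a partner of YTHDC2 that keeps germ cells in meiotic prophase. It had 752 and 1174 counts in the wild-type pair and 2362 in K3R3 and rose by 1.13 (SE 0.24; adjusted p = 0.000453), a call that DESeq2 kept. Rbm46, an RNA-binding protein of germ cells, had 12 and 50 counts in the wild-type pair and 186 in K3R3 and rose by 2.44 (SE 0.50), with 3.55 and 1.81 against each replicate alone. Dmrt1, a DM-domain factor of the gonad related to Dmrtb1, had 27.7 and 46.6 CPM in the wild-type pair and 68.9 CPM in K3R3 and rose by 0.89 (SE 0.25; adjusted p = 0.023). All of them are classed as bivalent, and for Rbm46 and Dmrt1 DESeq2 did not keep the call. The list median was 0.16. Dazl, which licenses germ cells for meiosis, had 18.8 and 10.1 CPM in the wild-type pair and 7.14 CPM in K3R3 (log2 -1.01; adjusted p = 0.134), and Ddx4, a germ cell helicase, 88.6 and 98.4 against 138 CPM (0.56; adjusted p = 0.157, and 0.0438 with library totals implied by RPKM, where it passed). Dazl and Ddx4 were named after their values were seen.

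Among 25 factors that silence germline genes, PRC1.6 subunits included, 0 rose and 1 fell, beside 0.542% of all tested genes, and the median was -0.17. Of the 25, 15 lay below both wild-type libraries and 2 above both, beside 33.2% and 35.3% of all genes. The one called was Dnmt3l, a cofactor of de novo DNA methylation, at 209 CPM in replicate 1, 73.8 CPM in replicate 2 and 73.6 CPM in K3R3. Its log2 difference of -0.94 (adjusted p = 0.00248) was -0.0040 without replicate 1, so the call rests on that library, and DESeq2 gave an adjusted p of 1.00. Mga, Max, E2f6, Pcgf6 and L3mbtl2, which make up PRC1.6 with others, were not called, with log2 differences of -0.22, -0.11, 0.31, 0.04 and 0.04 in that order. They were named for their role and not for their values.

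Of 21 genes of retinoic acid response and metabolism, 18 were tested, 2 rose and 0 fell, with a median of 0.76. That median covers all 18, of which 16 passed the minimum on wild type as well. Over all tested genes 2.02% were called higher and 0.542% lower, and among bivalent genes, to which both called genes belong, 10.5% were called higher. Crabp1, a cellular retinoic acid-binding protein, had 62 and 97 counts in the wild-type pair and 319 in K3R3 and rose by 1.83 (SE 0.40; adjusted p = 0.000711). Rbp4, the plasma retinol carrier, had 3 and 4 counts in the wild-type pair and 48 in K3R3, which is 12.1-fold higher (counting interval 5.43 to 31.6), and it passed the minimum through K3R3 alone. DESeq2 kept neither call. Of the 18 tested genes 9 are bivalent, a class whose median was 0.65. Of these genes 14 of the 20 with a row lay above both wild-type libraries and 2 below both, beside 35.3% and 33.2% of all genes. In the bivalent class 1431 of 1970 genes lay above both and 203 below both. The active class had 3330 and 4282 of 11538.

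**Figure D5:**
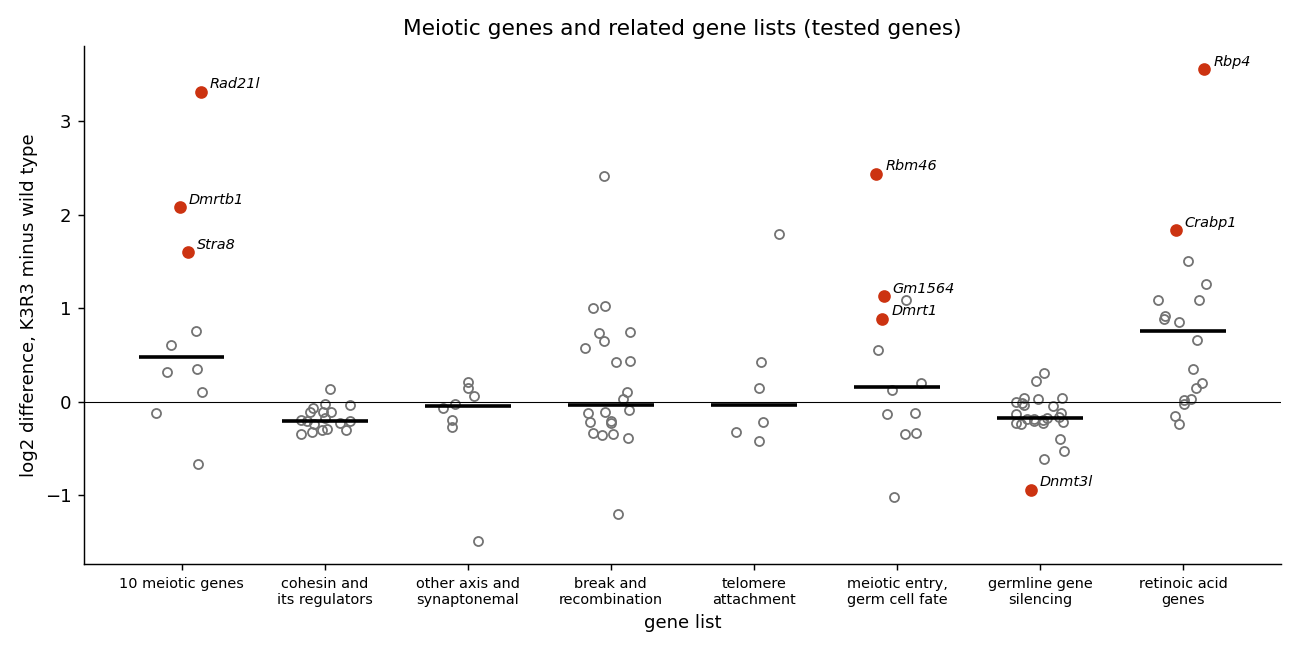
Log2 difference between K3R3 and wild type of the tested genes in the 10 meiotic genes and 7 related lists, marker lists left out, 1 point per gene, with called genes filled and named and a bar at the list median. In the lists plotted, called genes lie among the 10 meiotic genes, the regulators of meiotic entry, the silencing factors and the retinoic acid genes, and 0 lie in the lists of cohesin, axis, recombination and telomere genes.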

How the data were processed

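RNA-seq counts of 3 libraries were deposited by the authors in 1 table with a row per gene, as whole numbers with a smallest value of 1 in each library. The submitters' processing notes name HTSeq 0.5.4p1, DESeq 1.10.1 and build mm9. The aligner, annotation and strand setting are not given in the sources used here. RPKM values in the table are the authors' counts per gene length and a library total. The totals implied are 32657034 (wild-type replicate 1), 38006890 (replicate 2) and 36850438 (K3R3). The summed counts given above are 66.2%, 66.9% and 67.1% of them. The deposited fold ratio, its log2 and the unadjusted p-value are the authors' own comparison. Per the file headers they set K3R3 against wild type, but by the values their sign is opposite to K3R3 minus wild type in all 10 meiotic genes. Directions given here come from the counts and rest on the column names.

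The count model was edgeR 4.0.16, run in R 4.3.3. TMM factors scaled the column totals, and the 13829 genes whose mean reached 0.5 CPM entered a quasi-likelihood test, Benjamini-Hochberg adjusted over all of them with a threshold of 0.05. Spread could be estimated from the wild-type pair alone, with 1 residual degree of freedom, and K3R3 was taken to vary as they do. The prior degrees of freedom came out infinite, and each gene therefore has the spread of the common trend. Each SE is the absolute log2 difference divided by the square root of the F statistic of this test. It therefore carries that common spread and not the gene's own difference between replicates. DESeq2 1.42.0 was an alternative. Log2 differences against a single library use log2 CPM (prior count of 1). Intervals are exact 95% Poisson or conditional binomial intervals and cover counting error only. Other normalizations, minimum levels and tests were tried as alternatives. A planned comparison of expression within a paralog pair is not reported here, and the planned comparison of protein sequences was not made. The fits were tested on simulated data. Sequences come from the RefSeq promoter table (GRCm38.p6), in which all 10 genes were matched by symbol. Genes named in the other lists are those called, at most 6 per list, the direct paralogs Smc1a, Rad21, Stag1 and Stag2, and those said in the text to be chosen otherwise. The 10 genes and the lists were chosen with earlier results of these data known.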

Additional observations from a re-analysis of the deposited data

How the results depend on the processing

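Over all genes 355 were called (280 higher, 75 lower, 78.9% higher), against 59 by DESeq2 (33 and 26, 55.9% higher). Library totals implied by RPKM gave 516 (466 and 50, 90.3% higher) and moved the median of all genes from -0.01 to 0.11. Of the 10 meiotic genes 3 were called. DESeq2 called 1, Stra8, and a minimum mean of 2 CPM left 8 genes tested and 1 called, again Stra8, since Rad21l and Dmrtb1 fall under it. DESeq2 size factors, implied totals, no minimum and the likelihood ratio test each called 3. With implied totals 8 genes lay above both wild-type libraries in place of 7, and the log2 difference of Smc1b turned from -0.12 to 0.0022. No paired analysis was possible because K3R3 has 1 library and no replicate number. Leaving out a wild-type replicate leaves no residual degrees of freedom, so those log2 values have no test. With 6 counts in each wild-type library, depth limits Rad21l to an interval from 5.44 to 20.5.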
